A study of Mus musculus with 36 samples.

Results

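The unfolded protein response (UPR) of the endoplasmic reticulum (ER) was described in epididymal white adipose tissue (eWAT) through 10 genes: the sensors *Ern1*, *Eif2ak3* and *Atf6*, the transcription factors *Xbp1*, *Atf4* and *Ddit3*, the chaperones *Hspa5*, *Hsp90b1* and *Dnajb9*, and *Herpud1*, which acts in ER-associated degradation. They were chosen by symbol and not by a cut on their values, though with earlier results of these data known. They are 10 of the 24750 genes in the table of normalized expression. Each was found in 1 row, and all 10 had a value of at least 1 in all 36 libraries, so none was lost to the filter on low values. The 36 libraries came from eWAT of as many male mice on a C57BL/6 background, in 12 groups of 3. The mice were wild type (WT) or CCL19-KI, in which *Ccl19* was inserted at the *Adipoq* locus so that adipocytes express this chemokine. CCL19-KI mice were kept as a homozygous line and WT mice were bred apart from them. The feeding lasted 10 weeks and was a normal diet (ND), a 40% high-fat diet (40% HFD) or a 60% HFD. Within each diet and genotype, 3 mice had a silk ligature tied around the upper second molars at 14 weeks of age to cause periodontitis and 3 had none. All mice were 16 weeks old at the end, 2 weeks after the time of ligature. P-values measure the spread between single mice within groups, pooled over the 12 groups, and not that of the compared groups alone.

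In background terms, the UPR is started when unfolded proteins gather in the ER lumen. IRE1 (encoded by *Ern1*) then splices the *Xbp1* mRNA, PERK (*Eif2ak3*) slows translation and so favours that of *Atf4* and later of *Ddit3* (CHOP, linked to cell death), and ATF6 moves to the Golgi, where its cytosolic part is released as a transcription factor. Their targets include the ER chaperones BiP (*Hspa5*) and GRP94 (*Hsp90b1*), the BiP cochaperone ERdj4 (*Dnajb9*) and HERP (*Herpud1*). ER stress is widely studied in adipose tissue of obese mice. Gene-level values cannot tell the spliced from the unspliced form of *Xbp1*, and say nothing of the phosphorylation or cleavage by which the sensors are activated.

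The ER stress response element (ERSE), the site known to be bound by ATF6 together with NF-Y, was looked for in the promoters. As given below, *Atf6*, *Hspa5* and *Hsp90b1* passed the test for diet in the main fit, and *Dnajb9* and *Herpud1* did not. These calls depended on the setting, and whether ATF6 was active was not tested. Promoter sequences of RefSeq (GRCm38.p6) were found for 9 of the 10 genes (all but *Atf6*), and the 250 bases before the start of each gene were searched on both strands. The starts are those of RefSeq and differ from the GENCODE M21 extents of *Hspa5* and *Hsp90b1* given below. The GENCODE extent of *Hspa5* begins at chr2:34771970, so the element of that gene lies inside it. The letters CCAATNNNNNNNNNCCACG were present in 2 of the 9, *Hspa5* and *Hsp90b1*, against 0.122% of 27025 promoters. Both are among the chaperones already known as ATF6 targets, so this match could be foreseen and is no test of the diet effect. The elements are shown 5′ to 3′ on the strand that holds the motif, with 5 flanking bases on each side and the CCAAT and CCACG parts in capitals.

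*Hspa5*, chr2:34772020-34772048, on the strand of the gene, the 19 bases of the element 65 to 47 bases before the start: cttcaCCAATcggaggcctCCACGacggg

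*Hsp90b1*, chr10:86705633-86705661, on the strand of the gene, 212 to 194 bases before the start: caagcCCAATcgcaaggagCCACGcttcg

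*Hsp90b1*, chr10:86705528-86705556, on the opposite strand, 107 to 89 bases before the start: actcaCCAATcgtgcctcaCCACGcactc

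The element was also present in 6 of 19 promoters of a list of other ER chaperones and folding enzymes, in 2 of 15 of a list for ER-associated degradation and translocation, and in 0 of 13 sensors and transducers, 0 of 20 PERK-ATF4 targets and 0 of 7 genes for ER stress cell death. *Calr* (calreticulin) and *Pdia6* (a protein disulfide isomerase) are shown because they reappear below among the genes whose values ran closest to those of *Hspa5*. *Creld2* and *Ero1b* (an ER oxidase) are shown because they were called with diet. *Canx*, *Dnajc3*, *Derl3* and *Syvn1* also hold the element and are not shown. *Dnajb11*, *Sdf2l1* and *Manf*, also among those closest to *Hspa5*, were not found to hold it, though not every listed gene had a promoter sequence. Picked by their values, the genes shown cannot tell whether the element goes with diet.

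*Calr*, chr8:84847070-84847098, 162 to 144 bases before the start: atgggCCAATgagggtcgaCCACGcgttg

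*Pdia6*, chr12:17266486-17266514, 98 to 80 bases before the start: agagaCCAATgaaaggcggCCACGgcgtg

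*Creld2*, chr15:88819515-88819543, 126 to 108 bases before the start: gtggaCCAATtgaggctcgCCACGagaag

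*Ero1b*, chr13:12565677-12565705, 201 to 183 bases before the start: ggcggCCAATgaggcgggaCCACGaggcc

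The parts of the element are common on their own: CCACG was in 28.2% of all promoters and in 6 of the 9 genes, and CCAAT in 34.5% and in 7 of the 9. The core TGACGTGG of the UPR element and the amino acid response letters TGATGNAAT, both searched on both strands, were in 0.503% and 0.825% of all promoters and in 0 of the 9. A match describes these letters only.

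The libraries held 11962228 to 21581595 reads (median 15573273). In 2 of them *Ccl19*, the inserted gene, went against the label. It was 0.507 to 4.51 normalized CPM in the other 17 libraries labelled WT and 5.57 to 34.6 in the other 17 labelled CCL19-KI. In the library labelled WT ND without ligature replicate 2 it was 19.2, and in the library labelled CCL19-KI 60% HFD without ligature replicate 3 it was 0.687. The labels were used as deposited, and results resting on these libraries are given also without both, an alternative chosen after seeing the data. All 12 adipocyte markers were present in all libraries, but markers of other tissues varied far more. The hepatocyte score, the mean log2(CPM + 1) of 18 liver markers, ran from 1.14 to 10.6 and *Alb* (albumin) from 5.55 to 26901 CPM. Of the 18 markers, 16 were called higher on each HFD than on the ND. In 6 libraries the score was below 2: all 3 labelled WT ND without ligature, replicates 2 and 3 of ligatured CCL19-KI mice on the ND, and the library labelled CCL19-KI 60% HFD without ligature replicate 3. It was above 10 in 9 libraries, 2 of them from mice on the ND. The epididymis score reached 8.50 in the library labelled WT ND without ligature replicate 2, and the exocrine pancreas score 4.18 and 3.47 in CCL19-KI ND without ligature replicates 2 and 3. In bulk RNA, fewer cells of a type and less RNA per cell cannot be told apart.

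Per kilobase of exon, the chaperones *Hsp90b1* and *Hspa5* were the most abundant of the 10 transcripts, while the third chaperone, *Dnajb9*, was not. The median level over the 36 libraries was 137 CPM per kb for *Hsp90b1*, 108 for *Hspa5*, 50.5 for *Xbp1*, 44.4 for *Herpud1*, 30.5 for *Atf4* and 24.8 for *Dnajb9*. The sensors and *Ddit3* were lowest, at 7.83 CPM per kb for *Atf6*, 4.90 for *Ddit3*, 4.87 for *Eif2ak3* and 4.52 for *Ern1*. *Ddit3* rested on the fewest reads, 86 to 223 per library, and *Hspa5* on 3608 to 12571.

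The genes differed in how far they spread. The highest library was 2.00 times the lowest for *Atf6* and 9.29 times for *Herpud1*, and at most 3.62 times for the other 8 genes. When the 12 group means of a gene were put in order, each group overlapped the next for all 11 neighbouring pairs, in all 10 genes. This was not counted over all genes, so it cannot be taken as a trait of these 10. *Hspa5* was lowest in ligatured CCL19-KI mice on the ND (275 ± 60.4 CPM, SD, n = 3) and highest in ligatured WT mice on the 60% HFD (632 ± 58.7). *Herpud1* was lowest in WT mice on the ND without ligature (62.1 ± 13.3) and highest in WT mice on the 40% HFD without ligature (294 ± 145). CCL19-KI ND without ligature replicate 2, the library with the highest pancreas score, was the lowest of all 36 for 5 of the 10 genes (*Hspa5*, *Hsp90b1*, *Atf6*, *Ddit3* and *Dnajb9*). Over all 12 groups at once, limma's F test called 1 of the 10 genes, *Hspa5* (adjusted p = 0.0372), against 24.1% of all 17852 genes tested. That call was lost in 13 of 36 fits that left out 1 library.

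**Figure D1:**
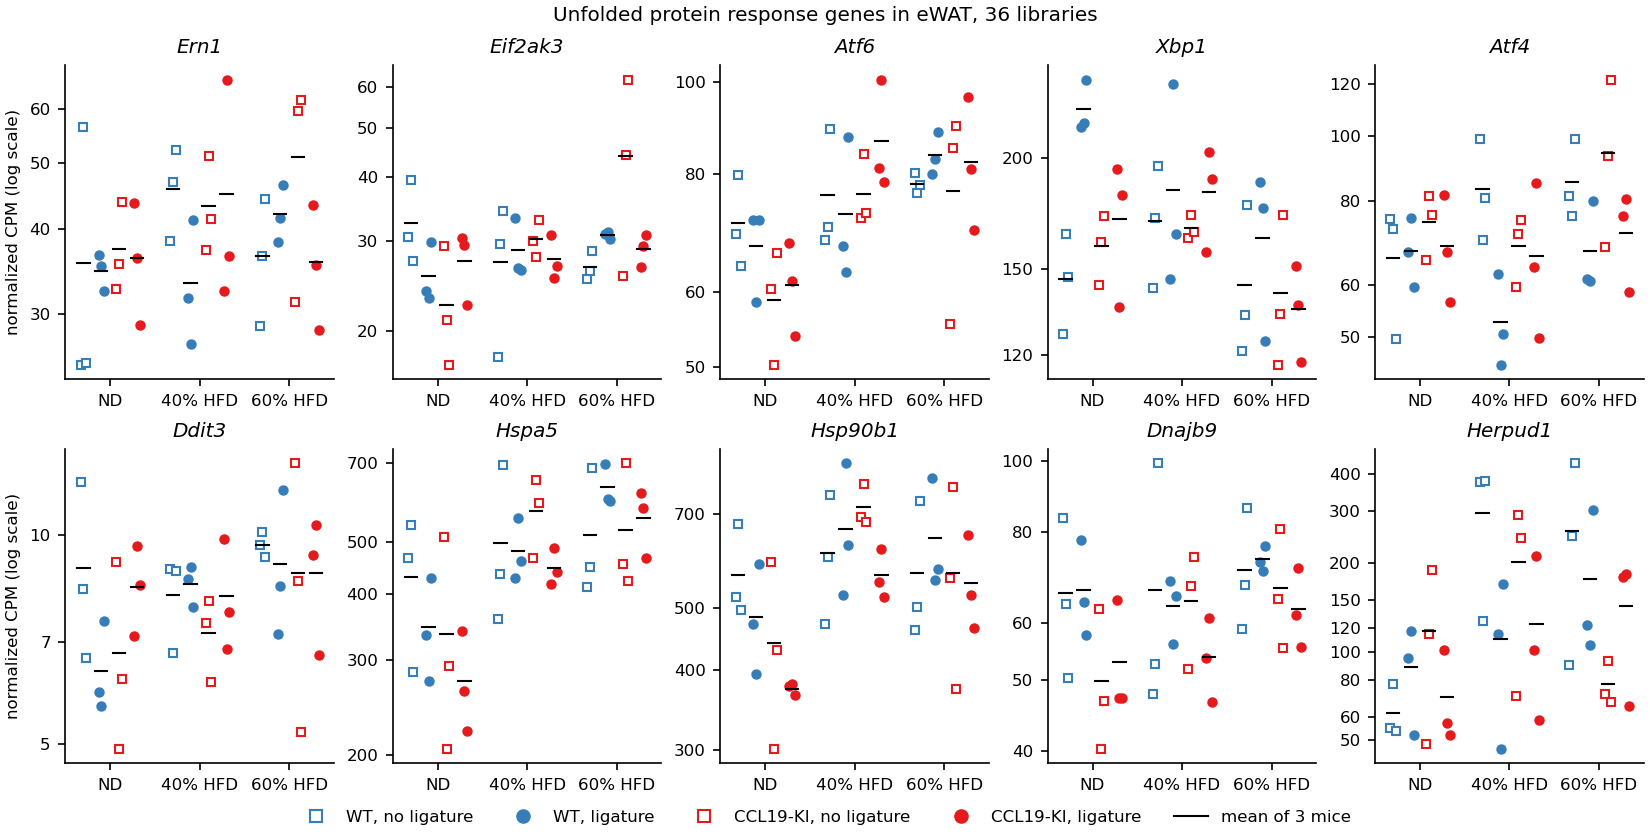
Normalized CPM (log axis) of the 10 UPR genes in 36 libraries, by diet on the x axis. Squares are mice without ligature and circles ligatured mice, blue WT and red CCL19-KI, and each bar is the mean of 3 mice. *Hspa5* reached 358 to 700 CPM on the HFDs and 205 to 537 on the ND.

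The main question was whether diet moved these genes. Averaged over genotype and ligature (12 mice against 12), *Hspa5* and *Atf6* were higher on both HFDs than on the ND, and *Hsp90b1* on the 40% HFD. For the 60% HFD against the ND, 2 of the 10 genes were called (limma, adjusted p below 0.05), both higher, where 18.6% of all genes were called and 10.2% were called higher. For the 40% HFD 3 of the 10 were called, all higher, against 9.21% of all genes and 5.36% called higher. The median log2 fold change of the 10 was 0.24 on the 60% HFD and 0.15 on the 40% HFD, while that of all genes was 0.014 and -0.016.

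Of the chaperones, *Hspa5* (ENSMUSG00000026864, chr2:34771970-34777547, GENCODE M21 on GRCm38) was 205 to 537 CPM on the ND (median 314), 358 to 695 on the 40% HFD (median 464) and 412 to 700 on the 60% HFD (median 587). On the 60% HFD it was 1.65-fold higher than on the ND, by 0.72 on the log2 scale (SE 0.15, 95% interval 0.42 to 1.02, adjusted p = 0.00189 with limma). On the 40% HFD it was higher by 0.56 (SE 0.15, adjusted p = 0.0184). The ranges overlapped, because 4 mice on the ND (WT without ligature replicates 1 and 2, WT with ligature replicate 3 and CCL19-KI without ligature replicate 1) lay within the range of the mice on the 60% HFD. Neither call was lost when any 1 library was left out. With quantile normalization the difference on the 60% HFD stayed called (0.57, adjusted p = 0.00739), and that on the 40% HFD did not (0.37, adjusted p = 0.099).

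*Hsp90b1* (ENSMUSG00000020048, chr10:86690209-86705509) followed, at 301 to 675 CPM on the ND (median 451), 472 to 841 on the 40% HFD (median 623) and 374 to 799 on the 60% HFD (median 555). It was higher on the 40% HFD by 0.47 (SE 0.13, adjusted p = 0.0223), a call that quantile normalization ended (0.27, adjusted p = 0.22). On the 60% HFD the difference was 0.32 (SE 0.13, adjusted p = 0.0727). Without the 2 libraries whose *Ccl19* went against the label it was 0.42 and called (adjusted p = 0.0245). *Dnajb9* did not pass the test, with differences of 0.23 (60% HFD) and 0.075 (40% HFD).

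Of the sensors, *Atf6* (ENSMUSG00000026663, chr1:170704674-170867771) had the narrowest spread, with 50.2 to 79.7 CPM on the ND (median 65.0), 63.1 to 101 on the 40% HFD (median 75.6) and 55.5 to 96.5 on the 60% HFD (median 80.5). It was 1.24-fold higher on the 60% HFD, by 0.31 (SE 0.083, adjusted p = 0.0125), and on the 40% HFD by 0.26 (SE 0.083, adjusted p = 0.0425). The first call stood in all 36 fits that left out 1 library, and the call on the 40% HFD was lost in 15 of them. Quantile normalization ended both (0.19, adjusted p = 0.0504, and 0.16, adjusted p = 0.157). *Eif2ak3* (0.24 and 0.086) and *Ern1* (0.19 and 0.21, 60% and 40% HFD) did not pass.

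None of the transcription factors was called on either diet. *Xbp1* (ENSMUSG00000020484, chr11:5520659-5525893) was the only one of the 10 genes with a negative difference on the 60% HFD, at 127 to 245 CPM on the ND (median 168) and 117 to 188 on the 60% HFD (median 135). The difference was -0.26 (SE 0.096, adjusted p = 0.0563). It was past the threshold with quantile normalization (-0.40, adjusted p = 0.00723) and with median-of-ratios size factors (-0.27, adjusted p = 0.0453). The same held with array weights (-0.20, adjusted p = 0.042), which called 44% of all genes on this diet, and in some fits that left out 1 library. The other settings left *Xbp1* uncalled on this diet. On the 40% HFD the values of *Xbp1* (143 to 242 CPM) were level with those of the ND, with a difference of 0.016. *Atf4* differed by 0.19 and -0.047 and *Ddit3* by 0.23 and 0.087 on the 60% and the 40% HFD.

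*Herpud1* (ENSMUSG00000031770, chr8:94386438-94395377) had the largest differences and the largest errors. It was 48.5 to 190 CPM on the ND (median 67.3), 46.8 to 379 on the 40% HFD (median 148) and 65.5 to 434 on the 60% HFD (median 114). The differences were 0.93 (SE 0.32, adjusted p = 0.0656) for the 40% HFD and 0.80 (SE 0.32, adjusted p = 0.0756) for the 60% HFD. Neither was called, and both the lowest of all 36 libraries and high ones were found among mice on the 40% HFD. By the criteria the study used for differentially expressed genes (an unadjusted p no higher than 0.05 with a ratio beyond 1.5 or 0.67), *Hspa5* and *Herpud1* passed on the 60% HFD, where 9.88% of all genes did, and *Herpud1* on the 40% HFD, where 7.9% did.

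**Figure D2:**
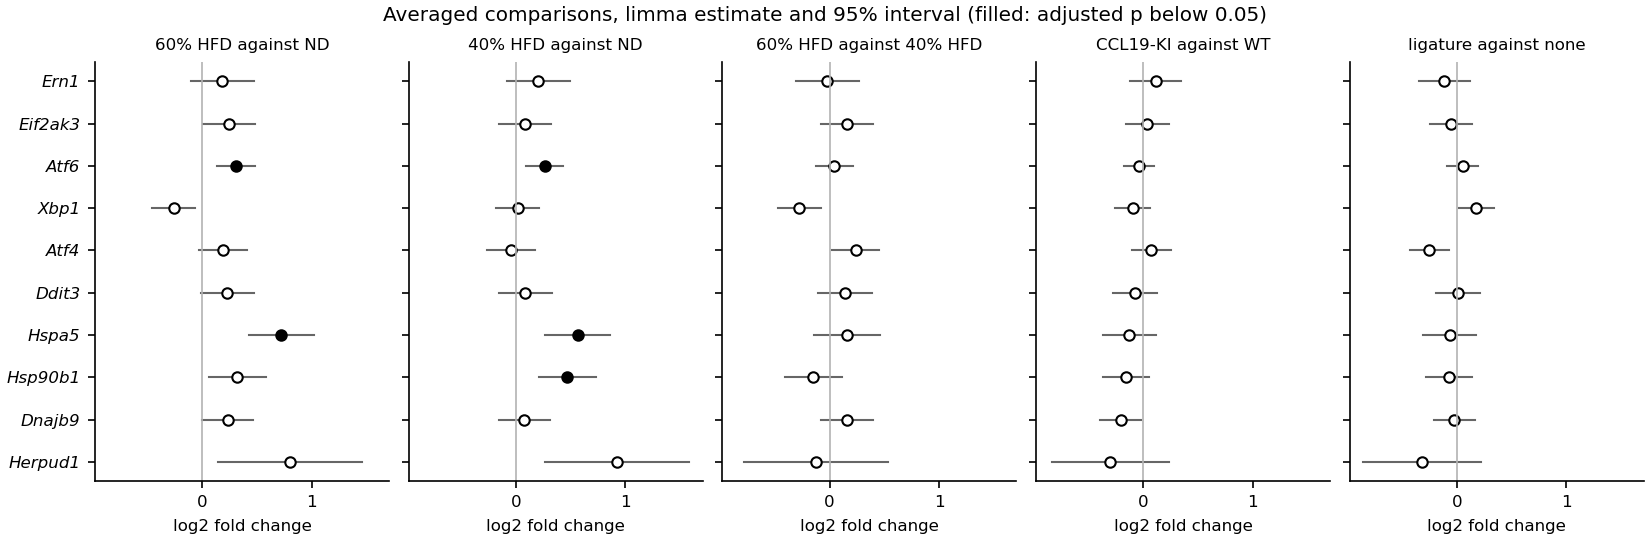
log2 fold change of each of the 10 genes (x axis) in the 5 averaged comparisons, with points for the limma estimate and lines for its 95% interval. Filled points have an adjusted p below 0.05: *Hspa5* and *Atf6* on both HFDs and *Hsp90b1* on the 40% HFD, and none in the other 3 comparisons.

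The liver signal moved with diet, and its part in these results was not tested beyond the following values. *Herpud1* ran with the hepatocyte score: 52.1 to 77.4 CPM in the 6 libraries below 2, 46.8 to 242 in the 21 libraries between 2 and 10, and 115 to 434 in the 9 above 10. With the score as a covariate, its differences from the ND were -0.073 on the 60% HFD and -0.22 on the 40% HFD, the opposite sign. Its slope was 0.31 log2 units per unit of score (adjusted p = 2.9e-05 with limma), and 12.7% of all genes were called for such a slope. *Herpud1* was the only one of the 10 called for it.

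For *Hspa5* the slope was 0.0046 (adjusted p = 0.946). On the ND it was 221 to 537 CPM (median 285) in the 5 libraries with a score below 2 and 205 to 511 (median 335) in the 7 others. With the score as a covariate it stayed higher on the 60% HFD by 0.71 (adjusted p = 0.0108), and on the 40% HFD by 0.55 (adjusted p = 0.126, no longer called). Within the ND the values did not lie evenly over the score. The 5 libraries with a score above 8 were at 205 to 340 CPM, on both sides of the ND median of 314. Those of 511 and 428 CPM had scores of 4.85 and 5.77, and both low and high values lay below 2.

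The other calls were lost under that covariate. *Hsp90b1* on the 40% HFD differed by 0.49 (adjusted p = 0.115), and *Atf6* by 0.24 on the 60% HFD (adjusted p = 0.117) and 0.17 on the 40% HFD (adjusted p = 0.446). The share of all genes called fell as well, to 11.7% for the 60% HFD and 2.85% for the 40% HFD. Leaving out the 9 libraries with a score above 10 was an alternative chosen after seeing the data. Of mice without ligature it left only replicate 1 of CCL19-KI on the ND, replicate 2 of WT on the 40% HFD and replicate 1 of WT on the 60% HFD. Groups of a single mouse give no spread, so only the size of the differences is given. *Hspa5* then differed by 0.49 on the 60% HFD and 0.31 on the 40% HFD. In the same way *Hspa5* and *Hsp90b1* had negative slopes with the exocrine pancreas score (-0.31, adjusted p = 0.0132, and -0.23, adjusted p = 0.032), for which 17.2% of all genes were called, and *Ern1* a positive slope with the epididymis score (0.14, adjusted p = 0.0295), for which 4.68% were. With the scores for liver, epididymis, kidney tubule and exocrine pancreas together as covariates, also chosen after seeing the data, 0 of the 10 were called, and *Hspa5* differed by 0.42 on the 60% HFD (adjusted p = 0.218) and by 0.18 on the 40% HFD (adjusted p = 0.881).

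**Figure D3:**
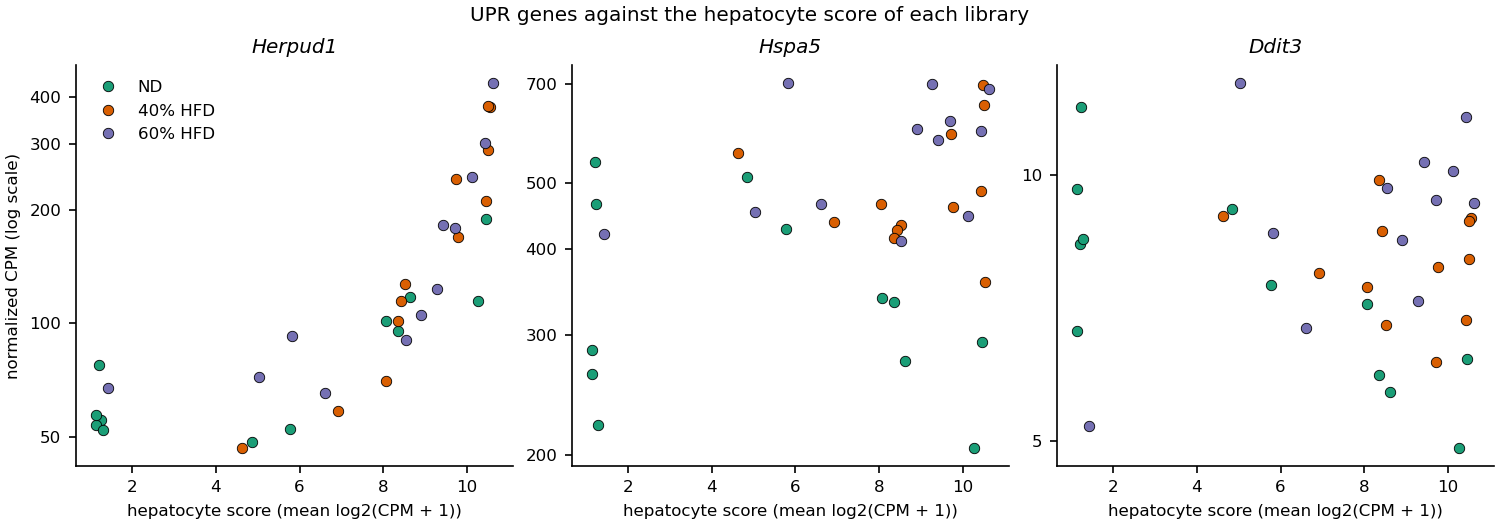
Normalized CPM (log axis) of *Herpud1*, *Hspa5* and *Ddit3* against the hepatocyte score (mean log2(CPM + 1) of 18 markers), 1 point per library, coloured by diet. *Herpud1* lies at 115 to 434 CPM in the 9 libraries with a score above 10 and at 52.1 to 77.4 in the 6 below 2, whereas *Hspa5* on the ND spans 221 to 537 in the 5 libraries with a score below 2 and 205 to 511 in the 7 others.

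Between the 60% and the 40% HFD, 0 of the 10 genes were called, against 0.745% of all genes. Of the 10, 2 had an unadjusted p under 0.05: *Xbp1* at -0.28 (adjusted p = 0.181 with limma) and *Atf4* at 0.24 (adjusted p = 0.329). The interval of the difference for *Hspa5* was -0.14 to 0.46. It includes 0 and does not show that the diets acted alike.

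Genotype was compared next, to ask whether the transgene moved the UPR. Averaged over diet and ligature (18 mice against 18), 0 of the 10 genes were called between CCL19-KI and WT, against 0.459% of all genes. *Dnajb9* had the lowest p: it was 47.9 to 99.3 CPM in WT mice (median 66.5) and 40.2 to 80.6 in CCL19-KI mice (median 58.2), a difference of -0.21 (SE 0.093, unadjusted p = 0.0341, adjusted p = 0.254). The 2 ranges overlapped over most of their length. The interval for *Hspa5* was -0.37 to 0.12. Without the 2 libraries whose *Ccl19* went against the label, 0 of the 10 were again called, while the share of all genes called rose to 7.35%.

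The ligature was the third factor. Averaged over diet and genotype, 0 of the 10 genes were called, against 0.325% of all genes. *Atf4* was 49.7 to 122 CPM without ligature (median 75.6) and 45.4 to 85.2 with it (median 63.0), a difference of -0.25 (SE 0.087, unadjusted p = 0.00727, adjusted p = 0.165). *Xbp1* differed by 0.18 (SE 0.078, unadjusted p = 0.0312, adjusted p = 0.263). For both genes the ranges of the 18 mice overlapped, and the other 8 genes had an unadjusted p above 0.05.

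Within single groups of 3 mice, 3 tests passed. For diet, 2 of 120 tests were called, against 4.14% over all genes. In ligatured CCL19-KI mice, *Hspa5* was 340, 263 and 221 CPM on the ND and 616, 578 and 466 on the 60% HFD. All 3 mice on the HFD were above all 3 on the ND. The difference was 1.02 (SE 0.29, adjusted p = 0.0249 with limma, 12.8% of all genes called in that comparison). The call was lost without ND replicate 2 (adjusted p = 0.0926) or 3 (0.104), or without 60% HFD replicate 1 (0.104) or 2 (0.0612). It was also lost with quantile normalization, where the difference was 0.58 (adjusted p = 0.179), with the hepatocyte score as a covariate (1.00, adjusted p = 0.076) and with the 4 tissue scores (0.89, adjusted p = 0.079). In the other 3 combinations of genotype and ligature the same difference was 0.28 (WT without ligature), 0.89 (WT with ligature) and 0.71 (CCL19-KI without ligature), none of them called.

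In CCL19-KI mice without ligature, *Eif2ak3*, the gene of PERK, was 29.3, 21.0 and 17.2 CPM on the ND and 25.7, 44.2 and 62.1 on the 60% HFD. Here the groups overlapped, since HFD replicate 1 was below ND replicate 1, and the highest value was that of the library labelled CCL19-KI 60% HFD without ligature replicate 3, in which *Ccl19* was low. The difference was 0.88 (SE 0.23, adjusted p = 0.0214, 10.2% of all genes called). Without both libraries whose *Ccl19* went against the label it was 0.60 (adjusted p = 0.0955), and the call was also lost without ND replicate 2 (adjusted p = 0.0904) or 3 (0.139). Markers of other tissues differed between these groups: the epididymis score was 2.41, 5.94 and 4.34 on the 60% HFD, and the pancreas score 4.18 and 3.47 in ND replicates 2 and 3. With the hepatocyte score as a covariate *Eif2ak3* differed by 0.70 (adjusted p = 0.134), with the epididymis score by 0.67 (adjusted p = 0.0839) and with the 4 tissue scores by 0.16 (adjusted p = 0.82), none of them called. Without the libraries with a hepatocyte score above 10, which took out ND replicates 2 and 3, the difference was 0.48. In WT mice without ligature the mean of *Eif2ak3* was lower on the 60% HFD than on the ND (26.7 against 32.5 CPM). With ligature it was 30.8 against 25.7 CPM in WT and 28.9 against 27.5 in CCL19-KI mice, and these differences were not called.

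The ligature gave 1 call in 60 tests, against 2.29% over all genes. In WT mice on the ND, *Xbp1* was 127, 164 and 147 CPM without ligature and 217, 219 and 245 with it. All 3 ligatured mice were above the other 3. The difference was 0.64 (SE 0.19, adjusted p = 0.0441 with limma, 6.73% of all genes called), and 0.73 (adjusted p = 0.0261) without the 2 libraries, 1 of which was in the group without ligature. This call was lost in 10 of 36 fits that left out 1 library (adjusted p 0.0303 to 0.164 over all 36), and with the hepatocyte score as a covariate (0.65, adjusted p = 0.106). Markers of other tissues differed between these groups: the hepatocyte score was 1.14 to 1.25 without ligature and 5.77 to 8.62 with it. The score of the mesothelial markers was 5.86 to 6.02 without ligature and 7.20 to 7.47 with it. Their part in the difference of *Xbp1* was not tested beyond the covariate. In the other 5 combinations of diet and genotype *Xbp1* was not called. Genotype gave 0 calls in 60 tests, against 5.73% over all genes. Of 50 tests of whether an effect differed between diets or ligature states, 0 passed, against 0.0975% over all genes, so no effect on these genes was shown to differ between groups.

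The other genes of the pathway were followed in 5 lists of 90 genes, of which 89 were tested (*Ern2* was not in the table). On the 60% HFD 23 of the 89 were called higher and 1 lower than on the ND, where 10.2% of all genes were called higher. On the 40% HFD 12 were higher and 0 lower, where 5.36% of all genes were called higher. The calls came mostly from the chaperones and from ER-associated degradation. In the 3 other averaged comparisons 0 of the 89 were called.

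Of 23 ER chaperones and folding enzymes, 9 were higher on the 60% HFD and 8 on the 40% HFD, 0 were lower, and the list's median difference was 0.21 and 0.26. *Sdf2l1*, a partner of BiP, was higher by 0.79 (SE 0.20, adjusted p = 0.00909) on the 60% HFD and by 0.69 on the 40% HFD. *Ero1b*, the oxidase whose promoter holds the element shown above, was higher by 0.75 and 0.76, and *Hyou1*, a large ER chaperone, by 0.54 and 0.64. *Calr* was higher by 0.59 and 0.48. These 4 genes rose on both HFDs.

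Of 18 genes for ER-associated degradation and translocation, 5 were higher on the 60% HFD and 2 on the 40% HFD (medians 0.26 and 0.18). *Edem1*, which directs misfolded glycoproteins to degradation, was higher by 0.87 (SE 0.13, adjusted p = 0.000188) and 0.77 (adjusted p = 0.00241). Of 16 sensors and transducers, 3 and 2 were higher (medians 0.076 and 0.061). The largest difference was that of *Creb3l3*, at 1.93 (SE 0.66, adjusted p = 0.0435) and 2.58 (adjusted p = 0.0182). It encodes an ER-bound transcription factor known mainly from liver and intestine, and the hepatocyte markers rose in the same comparisons (medians 2.95 and 3.82).

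The targets of PERK and ATF4 did not move together. Of 23, 3 were higher and 1 lower on the 60% HFD (median 0.13), and 0 were called on the 40% HFD (median 0.041). *Atf3*, a stress-induced transcription factor, was higher by 1.23 (SE 0.34, adjusted p = 0.0162) on the 60% HFD, and *Asns*, asparagine synthetase, was lower, at -0.85 (SE 0.21, adjusted p = 0.00843). Of 9 genes for ER stress cell death, 3 were higher on the 60% HFD (median 0.16), with *Gadd45a*, which acts in growth arrest, higher by 0.93 (adjusted p = 0.00481), and 0 were called on the 40% HFD (median 0.016).

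These counts changed with the setting, and so did the share of all genes called. With the hepatocyte score as a covariate, 13 of the 89 genes were higher and 1 lower on the 60% HFD (11.7% of all genes called). On the 40% HFD 1 was higher (2.85% of all genes called). Without the 9 libraries with a score above 10, some groups held a single mouse, and only medians are given. The median difference of the 89 was then 0.11 on the 60% HFD and 0.063 on the 40% HFD. With the 4 tissue scores as covariates, 1 was higher on the 60% HFD (1.54% of all genes called) and 0 on the 40% HFD (0%). Without the 2 libraries whose *Ccl19* went against the label, 18 were higher and 1 lower on the 60% HFD (15% of all genes called). On the 40% HFD 15 were then higher and 0 lower (7.9% of all genes called).

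**Figure D4:**
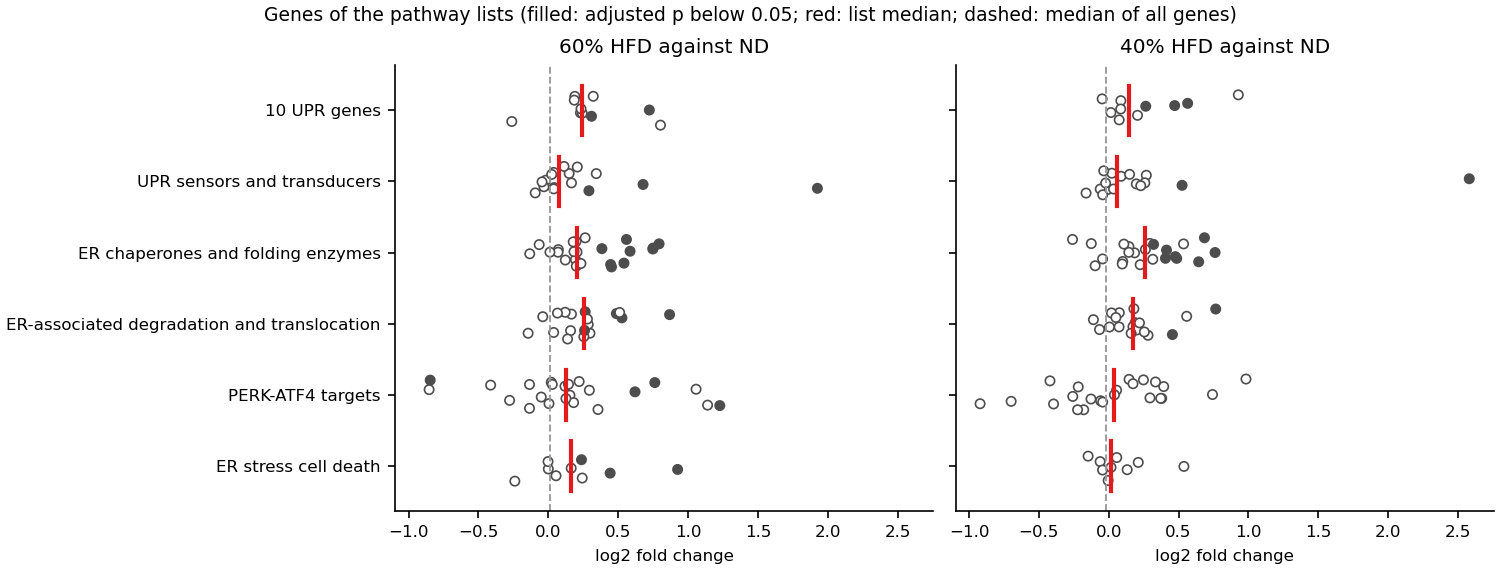
log2 fold change against the ND (x axis) of the 10 UPR genes and of the genes of 5 pathway lists (rows), for the 60% HFD on the left and the 40% HFD on the right. Filled points have an adjusted p below 0.05, red bars are list medians and the dashed line is the median of all genes. Of 23 chaperones and folding enzymes, 9 and 8 are filled, all to the right of 0.

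Across the 36 libraries the 10 genes did not run as 1 block. As a description over libraries that share diet, depth and tissue make-up, Pearson's r of log2(CPM + 1) was 0.86 between *Hspa5* and *Hsp90b1*, and 0.85 after the group means were taken out. *Hspa5* also ran with *Dnajb9* (0.70, and 0.74 within groups) and *Atf6* (0.69, and 0.50). The sensors *Ern1* and *Atf6* ran together (0.62, and 0.79). *Xbp1* and *Ddit3* ran against each other (-0.51, and -0.45), and *Ddit3*, the gene of CHOP, ran little with the gene of its activator *Atf4* (-0.049, and -0.14).

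Outside the 10, the genes most like *Hspa5* over the 36 libraries were *Dnajb11* (0.88), *Sdf2l1* (0.88), *Calr* (0.88), *Pdia6* (0.87) and *Manf* (0.86), all found in the list of ER chaperones and folding enzymes. Those most like *Ddit3* were *Clec12a* (0.72), *S100a4* (0.71), *Cyba* (0.71), *Clec4b1* (0.70) and *Lat2* (0.70), of which none is in the 5 lists.

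**Figure D5:**
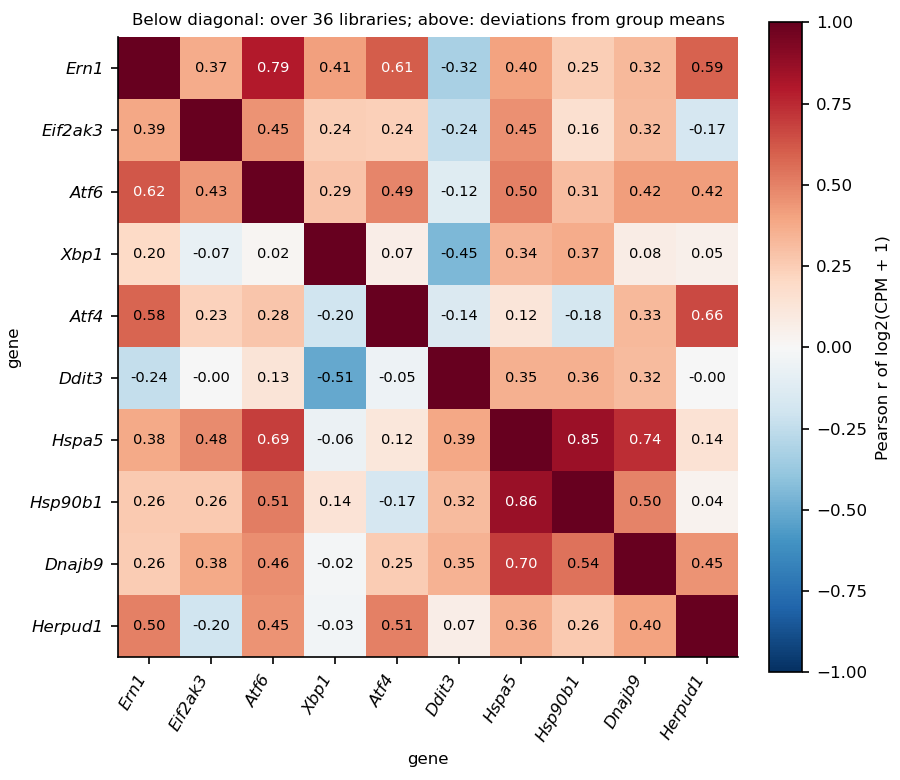
Pearson's r of log2(CPM + 1) between pairs of the 10 genes (both axes), over 36 libraries below the diagonal and for deviations from the 12 group means above it, from blue (-1) to red (1). *Hspa5* and *Hsp90b1* are at 0.86 and 0.85, *Xbp1* and *Ddit3* at -0.51 and -0.45.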

How the data were processed

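RNA of eWAT from 36 mice was sequenced in pairs of reads from directional, rRNA-depleted libraries. According to the authors, reads were trimmed with Trimmomatic 0.38 and counted per gene with Bowtie2 and RSEM 1.3.0. The build is given as mm10 in the methods and as GRCm39 in the submitters' processing notes. The deposited signal values are, per the authors, edgeR-normalized CPM. Every value was a whole multiple of the value of 1 read (tolerance 0.01, 100% of values), so reads per gene were recovered. 0 columns went unused, and of the 24750 gene IDs 24626 have a symbol. The value of 1 read was 0.047 to 0.083 CPM, and low genes such as *Ddit3* are the least precise.

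Groups followed the labels. Values were transformed to log2(CPM + 1), a scale that understates the change of low genes, and 17852 genes with at least 1 in at least 3 libraries were tested with limma 3.58.1 (R 4.3.3), with 12 group means and eBayes with an intensity trend. P-values were adjusted over all genes by the Benjamini-Hochberg method, with a threshold of 0.05. Contrasts were averaged over the other factors, or taken within groups. limma and edgeR were tested on simulated data. Alternatives were edgeR 4.0.16 on the recovered reads, other pseudocounts (0.1 and 5), filters (none, or a mean of 5), normalizations, variance estimates, marker scores as covariates, a replicate block, separate fits by ligature state, the study's criteria and leaving out each mouse. The 10 genes, the lists and the tests were chosen with earlier results of these data known. Of the pathway lists, the text names up to 5 rises and 5 falls per averaged comparison among called genes. *Calr*, *Pdia6*, *Creld2*, *Canx*, *Dnajc3*, *Derl3* and *Syvn1* were named also for their promoters. Libraries of a pair always differed by far more than sampling noise (chi-square per degree of freedom at least 16.9). Figures were drawn with matplotlib 3.10.9 in Python 3.11.15.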

Additional observations from a re-analysis of the deposited data

How the results depend on the processing

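Counts of calls moved more than fold changes. Quantile normalization called 2 genes over the 12 groups, 0 on the 40% HFD, 1 for genotype, 0 for ligature and 5 for diet within groups; of all genes called on the 60% HFD, 32.6% instead of 54.8% were then higher, and on the 40% HFD 40.4% instead of 58.2%. Array weights called 9 genes over the 12 groups, 9 on the 60% HFD and 5 on the 40% HFD. Of all genes they called 44% and 26.9% on these diets, instead of 18.6% and 9.21%. For genotype, averaged over the other factors, they called 21.3% of all genes instead of 0.459%. Within groups they called 9 for genotype, 5 for ligature and 26 for diet, and 2 differences of effects. For counts over the 12 groups and within groups, shares of all genes under the alternatives are not given. These counts can therefore not be read as a trait of the 10 genes. edgeR called 1 gene for genotype within groups. Without a filter 0 ligature calls were left. The hepatocyte score as a covariate left 1 call on the 60% HFD and 0 over the 12 groups, on the 40% HFD and for ligature and diet within groups; the epididymis score left 0 over the 12 groups and 1 for diet within groups. Of the alternatives chosen after seeing the data, the 4 tissue scores gave 0 calls over the 12 groups, on both HFDs, and for ligature and diet within groups. Leaving out the 9 libraries with a hepatocyte score above 10 left some groups with a single mouse, so its calls are not given. *Herpud1* turned negative with the hepatocyte score (-0.073 and -0.22, 60% and 40% HFD) and with the 4 scores (-0.10 and -0.22). The study's criteria gave 1 call on the 40% HFD and, within groups, 2 for genotype, 3 for ligature and 9 for diet; separate fits by ligature state gave 4 for diet. The cause of these changes was not tested.

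Replicate numbers are shared by all groups, but only 73 of 198 pairs of same-numbered libraries had a correlation of deviations over 0.1, and 10 of 36 libraries ran best with their own number, so the numbers were not taken as pairs. With the replicate number as a block, 0 genes were called over the 12 groups, 2 on the 60% HFD and 2 on the 40% HFD.

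Leaving out 1 library gave 0 to 3 calls over the 12 groups, 2 to 4 on the 60% HFD and on the 40% HFD, and, within groups, 1 to 6 for diet, 0 to 2 for ligature and 0 to 1 for genotype. The 60% HFD count was 4 without CCL19-KI ND without ligature replicate 1 or CCL19-KI 60% HFD without ligature replicate 3, and the diet count 6 without the former. The change of *Hspa5* ran from 0.65 to 0.81 on the 60% HFD and from 0.49 to 0.65 on the 40% HFD, and that of *Herpud1*, called in 2 and 6 of the 36 fits, from 0.67 to 0.96 and from 0.80 to 1.09. Of the 43 uncalled pairs of gene and comparison not named here, 1505 of 1548 values kept sign and call.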
